A study of Mus musculus with 6 samples.

Results

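A cassette exon is an internal exon that the spliceosome either joins to both neighbouring exons or leaves out, so that 1 gene yields 2 forms of its messenger RNA. In junction reads it appears as 3 introns of 1 chromosome and strand. A skipping intron runs past the exon, an inclusion intron with the same start ends before it, and another with the same end begins after it. Among 219945 introns counted in each library, 3627 autosomal triplets met this pattern with an exon of 10 to 300 bases and at least 30 reads in all (skipping intron plus mean of the inclusion introns). They held 3536 distinct exons and 3533 distinct skipping introns, and 3604 of the triplets lay in 2636 named genes. A further 135 triplets on chromosomes X and Y met the other conditions and are not described here. The read minimum was applied to 4687 autosomal triplets. Just inside it, 41 held from 30 to under 33 reads, and just outside it, 48 held from 27 to under 30.

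The RNA came from mouse embryonic stem (ES) cells, line VGB6, with 3 wild-type libraries and 3 libraries of the ZRSR2 knockout. Total RNA was selected for polyA tails before sequencing, per the labels' protocols. The sources used here do not state how the knockout was made, whether its libraries stand for 1 clone, or whether the cells carry any other allele or treatment. The labels do not tell separate cultures from repeats of 1 culture, so a p-value here covers only the spread among these libraries, part of which may be technical. Values of a group are given below in the order of replicates 2, 3 and 5.

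ZRSR2 is a protein of the minor spliceosome, which removes the rare U12-type introns, and it recognises their 3′ splice site. Most introns are of the U2 type and are removed by the major spliceosome, in which the U2AF proteins recognise the same site. Whether an exon is kept is set by the strength of its splice sites and by RNA-binding proteins of the SR, hnRNP, MBNL, CELF and RBFOX families. An exon whose length is a multiple of 3 can be added or removed without a shift of the reading frame. Other exons shift the frame and often bring an early stop.

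The sequences of 6 cassette exons are shown so that the unit being counted can be seen. Among the tested exons, 9 lay with 5 intron bases on each side inside a promoter sequence of the RefSeq annotation (GRCm38.p6), and 6 of these had a length that is a multiple of 3. Capitals mark the last intron bases before the exon and the first after it, which were AG and GT in all 9. The small letters between them are the exon, 5′ to 3′ on the strand of the gene. Hnrnpd (57 bases, chr5:99976534-99976590, minus strand) encodes the mRNA-binding protein AUF1. G3bp2 (99 bases, chr5:92063337-92063435, minus strand) encodes a stress granule protein. Ssbp3 (81 bases, chr4:107027217-107027297, plus strand) encodes a DNA-binding partner of LIM domain cofactors. Mff (159 bases, chr1:82741818-82741976, plus strand) encodes the mitochondrial fission factor. Evl (63 bases, chr12:108683348-108683410, plus strand) encodes an actin regulator of the Ena/VASP family. Dclk2 (48 bases, chr3:86830824-86830871, minus strand) encodes a doublecortin-like kinase.
Hnrnpd: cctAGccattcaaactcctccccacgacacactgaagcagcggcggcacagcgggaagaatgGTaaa
G3bp2: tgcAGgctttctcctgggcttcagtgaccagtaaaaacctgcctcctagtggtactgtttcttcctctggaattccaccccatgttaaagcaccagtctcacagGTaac
Ssbp3: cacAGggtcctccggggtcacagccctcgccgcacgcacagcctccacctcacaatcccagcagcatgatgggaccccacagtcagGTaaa
Mff: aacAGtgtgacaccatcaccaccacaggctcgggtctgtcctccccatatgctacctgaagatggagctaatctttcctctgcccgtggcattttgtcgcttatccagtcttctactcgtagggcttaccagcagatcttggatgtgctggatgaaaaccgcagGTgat
Evl: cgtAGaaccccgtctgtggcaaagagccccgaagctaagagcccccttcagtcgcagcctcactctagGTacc
Dclk2: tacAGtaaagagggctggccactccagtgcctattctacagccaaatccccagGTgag

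These exons ranged from almost always skipped to mostly kept. The inclusion share is the percent of reads that include the exon among all reads that include or skip it. The Dclk2 exon had an inclusion share of 0.380%, 2.38% and 2.58% in wild-type cells and 0.958%, 1.73% and 2.52% in knockout cells. For the Mff exon the shares were 3.68%, 5.75% and 9.41% in wild-type cells and 3.83%, 4.60% and 5.10% in knockout cells. The groups overlapped in both. The G3bp2 exon was at 22.9%, 27.5% and 22.3% in wild-type cells and 24.0%, 28.9% and 28.9% in knockout cells, and the Ssbp3 exon at 76.6%, 65.1% and 68.8% against 66.4%, 64.5% and 67.9%. The Evl exon was at 66.7%, 62.9% and 64.9% in wild-type cells and 60.1%, 59.8% and 60.2% in knockout cells, so that the groups did not overlap. Its log2 odds of inclusion, knockout minus wild type, was -0.29 (SE 0.20, edgeR adjusted p = 0.841). None of the 6 exons passed the test.

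The libraries held between 19801687 and 63623214 spliced reads by column sum, with the fewest in wild-type replicate 2. Spliced reads of Zrsr2 numbered 660, 2190 and 2129 in wild-type cells and 33, 12 and 0 in knockout cells. All 10 ES cell markers examined were present, with a summed level from 1616 to 1852 CPM (spliced reads scaled to library size) over the 6 libraries. The 7 fibroblast or feeder markers summed to 476, 371 and 187 CPM in wild-type cells and 566, 495 and 233 in knockout cells. Of these 7, none was at 0 in any library. Of 5 endoderm markers, 3 were at 0 in at least 1 library. The endoderm list summed to 3.03, 2.13 and 3.77 CPM in wild-type cells and 1.83, 1.18 and 1.19 in knockout cells, without overlap. Of 5 neural markers, 4 had listed introns, and none of these was at 0 in any library. The neural list summed to between 48.8 and 59.3 CPM over the 6 libraries.

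The deposited count of an intron included every read whose gap covers it. In 113450 of 113450 cases (nested introns of the same strand, per library) the inner intron held at least as many reads as the outer one, and the same held in 25253 of 25253 cases on opposite strands. Inclusion introns therefore contained the skipping reads, and these were subtracted before the share was formed. A triplet was tested if at least 10 reads included and at least 10 reads skipped the exon over the 6 libraries. This left 2603 triplets with 2542 distinct exons in 1992 genes, and the median number of reads per tested triplet was 55, 150 and 189 in wild-type cells and 159.5, 84 and 97.5 in knockout cells. Of the others, 179 had fewer than 10 skipping reads and 845 fewer than 10 inclusion reads. For 356 tested triplets (13.7%) the skipping intron lay inside a longer listed intron, whose reads were counted in it too. At 82 tested triplets more than 1 gene overlapped, and 118 shared their exon with another triplet.

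Across the tested exons both forms were common. With the 6 libraries pooled, 1679 of 2603 triplets (64.5%) had an inclusion share from 10% to 90%, while 410 (15.8%) lay below and 514 (19.7%) above. Exon length was a multiple of 3 in 1767 of the tested triplets (67.9%) and in 2491 of all 3627 (68.7%). The remainder was 1 in 612 and 2 in 524. The frame-keeping share differed little between the rarely included (67.6%), intermediate (67.5%) and mostly included (69.5%) exons. The length ran from 12 to 300 bases with a median of 96 and quartiles of 63 and 138. Introns before and after the tested exons had median lengths of 1862 and 1818 bases, against 1434 for all listed autosomal introns.

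Short exons were mostly skipped. The median inclusion share was 7.18% for the 75 tested triplets with exons of 10 to 27 bases, 22.9% for 233 of 28 to 50 bases, and 54.2% for 1049 of 51 to 100 bases. It was 73.1% for 1051 of 101 to 200 bases and 73.8% for 195 of 201 to 300 bases. Among the shortest, 71 of 75 (94.7%) had a length that is a multiple of 3. Exons of this size are known as microexons and many of them are kept mainly in neurons. A 12-base exon of Zmynd8, a chromatin reader, was included at 5.24%, 3.27% and 4.28% in wild-type cells and 3.54%, 2.70% and 3.35% in knockout cells. Dnm2, which encodes the membrane fission GTPase dynamin 2, held a pair of 12-base exons. The one at chr9:21489910-21489921 was at 5.23% ± 1.26 in wild-type cells and 4.98% ± 0.462 in knockout cells (SD, n = 3 each). The other, at chr9:21490658-21490669, was at 11.6%, 10.9% and 11.8% in wild-type cells and 13.2%, 14.1% and 15.5% in knockout cells, without overlap of the groups (log2 odds 0.35, SE 0.23, edgeR adjusted p = 0.800). The inclusion introns of the Zmynd8 exon and of the Dnm2 exon at chr9:21489910-21489921 differed more than 3 times in reads.

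**Figure D1:**
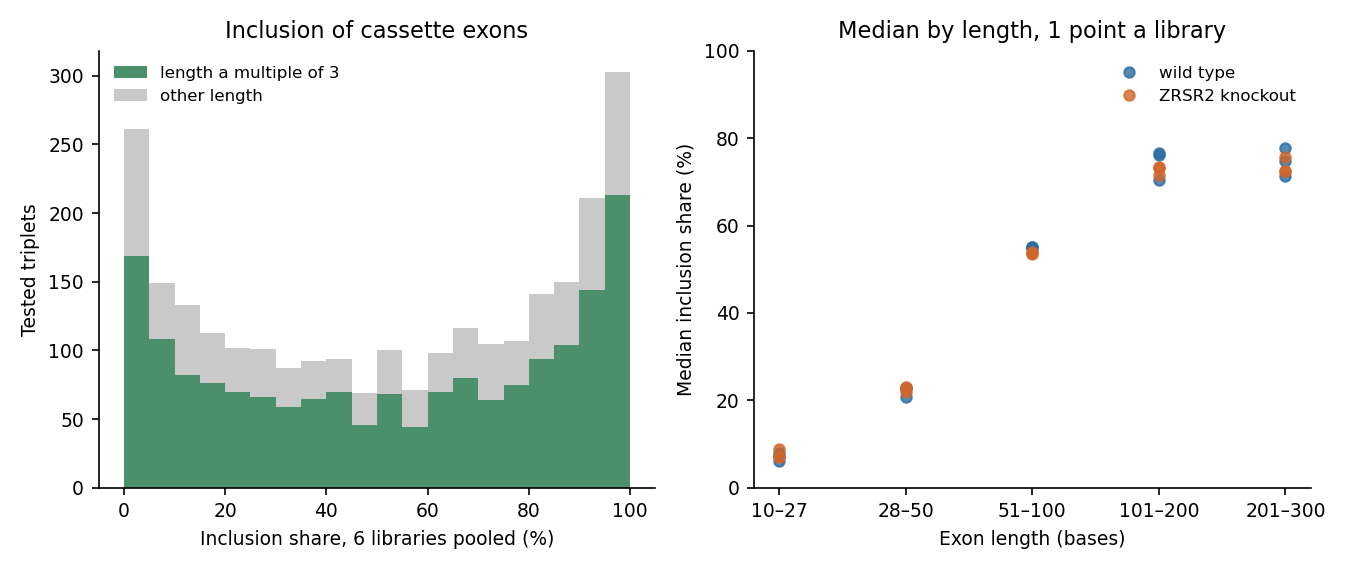
Left, number of tested triplets by inclusion share (percent, 6 libraries pooled, bins of 5 points), stacked by whether the exon length is a multiple of 3. Right, median inclusion share (percent) by exon length in bases, with 1 point a library for 3 wild-type and 3 knockout libraries; the medians lie near 7% for the shortest class and above 70% from 101 bases on.

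The comparison of knockout with wild type addressed how often cassette exons are kept when ZRSR2 is lost. No exon passed the test without a pairing of the libraries. The edgeR quasi-likelihood test of the interaction of read kind with genotype, with Benjamini-Hochberg adjustment over 2697 tested triplets of all chromosomes, called 0 (0%), and the smallest adjusted p was 0.685. At an unadjusted p under 0.05 there were 171 of 2603 autosomal triplets (6.57%), 57 with higher and 114 with lower inclusion in knockout cells. DESeq2 and limma also called 0, with 56 and 156 triplets at an unadjusted p under 0.05. On simulated data of the same 2697 triplets, 27 of 100 changes of 1 in log2 odds and 75 of 100 changes of 2 were recovered. The changes were placed only in triplets with at least 20 reads in every library, and all counts were drawn at the same dispersion. Recovery of changes in triplets with fewer reads was not tested.

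Most exons with enough reads in every library had group means within 5 points of each other. The log2 odds had a median of -0.08 with a median SE of 0.41, and its central quartiles ran from -0.41 to 0.22. Values were below 0 in 1496 triplets (57.5%) and above 0 in 1107. Without wild-type replicate 5 the median was -0.04, and without wild-type replicate 3 it was -0.13. Among 1956 triplets with at least 20 reads in every library, 1598 (81.7%) differed by less than 5 percentage points between the group means. Their median absolute difference was 1.68 points, where the median SD between libraries was 2.41 points in wild-type cells and 2.17 in knockout cells. Of all tested triplets, 15.8% had a pooled share under 10% and 19.7% one over 90%. There a difference in points stays small even if the odds change, as for a Zfp936 exon (-1.27 points, log2 odds -2.18). A difference of at least 10 points was seen in 65, of which 47 were lower in knockout cells and 18 higher, and in 21 of the 65 the groups did not overlap.

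Over all tested members the groups did not overlap in 310 triplets, 126 with higher and 184 with lower inclusion in knockout cells. Over the 2697 triplets of all chromosomes the share was 11.9%, with 4.82% higher and 7.08% lower. The median inclusion share of a library was 57.6%, 54.8% and 57.5% in wild-type cells and 54.1%, 54.5% and 53.3% in knockout cells. All 3 knockout medians lay below the 3 wild-type medians, with a difference of the group means of -2.64 points (exact permutation p = 0.1, two-sided, the smallest that 3 against 3 allows). With at least 20 reads in every library the difference was -0.868 points (exact permutation p = 0.5). The share of skipping among all reads of the tested triplets was 43.4%, 44.5% and 43.7% in wild-type cells and 44.6%, 44.4% and 43.7% in knockout cells, with overlapping groups (exact permutation p = 0.4).

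By inclusion class, the intermediate exons (10% to 90%) had library medians of 55.0%, 52.3% and 54.5% in wild-type cells and 51.4%, 51.4% and 50.2% in knockout cells (exact permutation p = 0.1). For mostly skipped exons the medians were 2.93%, 3.55% and 3.66% against 3.33%, 3.43% and 3.38% (exact permutation p = 1). For mostly kept exons they were 96.9%, 95.9% and 97.0% against 96.2%, 95.8% and 96.1% (exact permutation p = 0.3). For exons of 51 to 100 bases the library medians were 55.1%, 55.0% and 54.9% in wild-type cells and 53.6%, 53.8% and 53.5% in knockout cells (exact permutation p = 0.1). In the other length classes the groups overlapped (exact permutation p from 0.5 to 0.7). Group means differed there by 0.571 points (10 to 27 bases), 0.425 (28 to 50), -1.64 (101 to 200) and -1.14 (201 to 300). In all, 24 such values per library were compared, and with 3 libraries a group none can reach an adjusted p under 0.1.

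**Figure D2:**
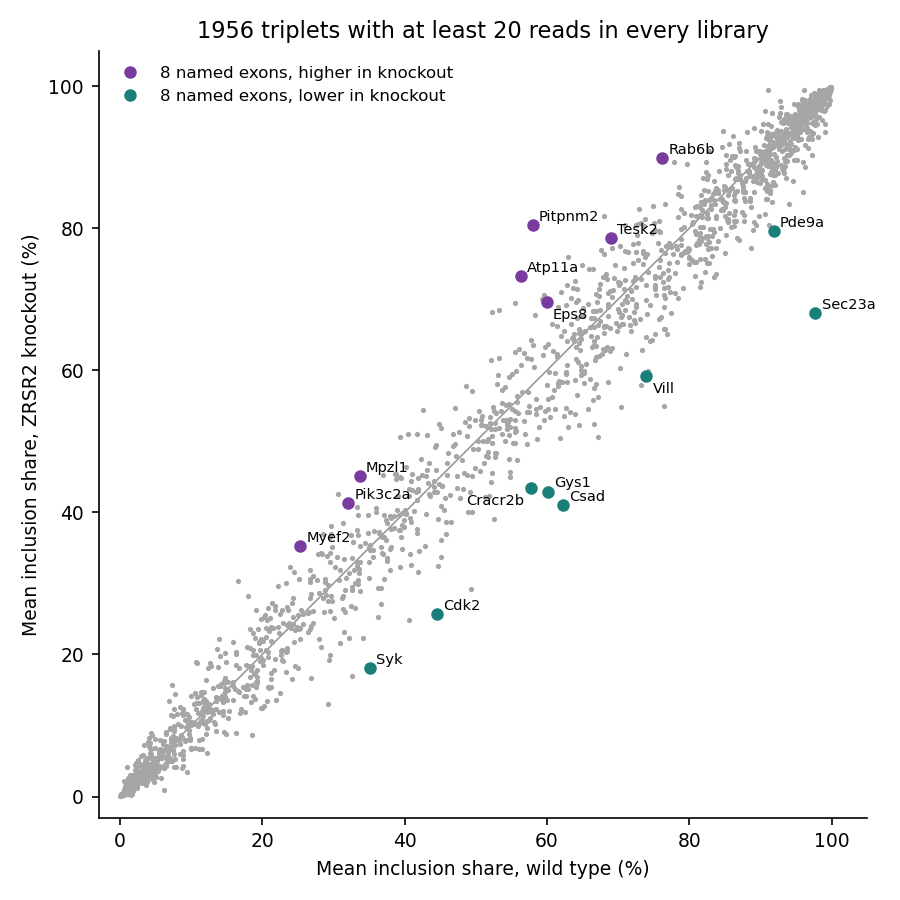
Mean inclusion share in knockout cells against wild type (percent, n = 3 libraries each) for 1956 triplets with at least 20 reads in every library, with the line of equal shares. Of these triplets 81.7% lie within 5 points of the line, and the coloured points are the 8 named exons on each side whose groups do not overlap.

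Deviations of libraries with equal replicate numbers from their group means were weakly correlated (0.112, 0.189 and 0.145). The labels state no pairing, and these correlations come from the same data that are tested. The fit with replicate number as a block is given beside the results it changes, and its calls depend on this assumed pairing. With the block, edgeR called 3 of 2697 triplets (0.111%), all with lower inclusion in knockout cells, in Cdk2, Atp5d and Sec23a. Leaving out 1 library at a time under the block, the count was 0 without wild-type or knockout replicate 2, 2 without wild-type or knockout replicate 5, 74 without wild-type replicate 3 (13 higher, 61 lower) and 76 without knockout replicate 3 (13 higher, 63 lower). Under the block, the partner of an omitted library no longer bears on the difference. Leaving out either library of a replicate number is therefore the same comparison of 2 pairs, with 1 residual degree of freedom.

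Cdk2 encodes the cyclin-dependent kinase that drives entry into DNA synthesis, and its 144-base exon (chr10:128699976-128700119) gives a longer kinase isoform in rodents. The exon was kept in 45.3%, 32.8% and 55.5% of reads in wild-type cells and in 26.5%, 20.2% and 30.2% in knockout cells. The 3 knockout values lay below the 3 wild-type values. The log2 odds was -1.22 (SE 0.34, edgeR adjusted p = 0.685) without the block and -1.23 (adjusted p = 0.0243) with it. Under the block, the log2 odds was -1.25 without replicate 2 of either group (edgeR adjusted p = 0.434 without wild type, 0.411 without knockout) and -1.07 without replicate 5 of either (0.107 and 0.105). It was -1.37 without replicate 3 of either group (edgeR adjusted p = 5.06e-06 and 5.68e-06).

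Atp5d encodes the delta subunit of the mitochondrial ATP synthase. Its 89-base exon (chr10:80145219-80145307), whose loss shifts the frame, was kept in 96.8%, 94.8% and 97.3% of reads in wild-type cells and 94.6%, 85.8% and 94.9% in knockout cells. The lowest wild-type library, replicate 3, lay between the knockout libraries, and knockout replicate 3 stood lowest of all 6. The log2 odds was -1.10 (SE 0.42, edgeR adjusted p = 0.685) without the block and -1.19 (adjusted p = 0.0243) with it. Under the block, the log2 odds was -1.31 without replicate 2 of either group (edgeR adjusted p = 0.236 without wild type, 0.249 without knockout). The log2 odds was -1.31 without replicate 5 of either group (edgeR adjusted p = 0.00165 and 0.00130) and -0.90 without replicate 3 of either (0.0216 and 0.0215). Each such fit rests on 2 pairs. With no block it was -0.56 without knockout replicate 3.

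Sec23a encodes a subunit of the COPII coat that carries proteins out of the endoplasmic reticulum. Its 87-base exon (chr12:59004490-59004576) was at 97.2%, 98.4% and 97.5% in wild-type cells and at 13.2%, 95.6% and 95.3% in knockout cells. The low value stood in knockout replicate 2 alone, where the skipping intron held 1015 reads against 2 to 6 in each of the other 5 libraries. In that library 14 consecutive listed introns (chr12:58992284-59021667), 8 of Sec23a and 6 of the neighbouring Gemin2 on the other strand, held 2.61 to 162 times the median level of the other libraries. The count above that level was nearly the same in all 14, between 932 and 1009 reads, and between -70.9 and 11.6 reads in the 7 introns around them. A read whose gap covers the whole stretch would be counted in every one of these introns, the skipping intron included. Whether the 1015 reads join the neighbours of the Sec23a exon was not tested. The log2 odds was -4.36 (SE 2.02, edgeR adjusted p = 0.730), -4.66 with the block (adjusted p = 0.0381), and -1.05 without knockout replicate 2 (no block, adjusted p = 0.833).

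**Figure D3:**
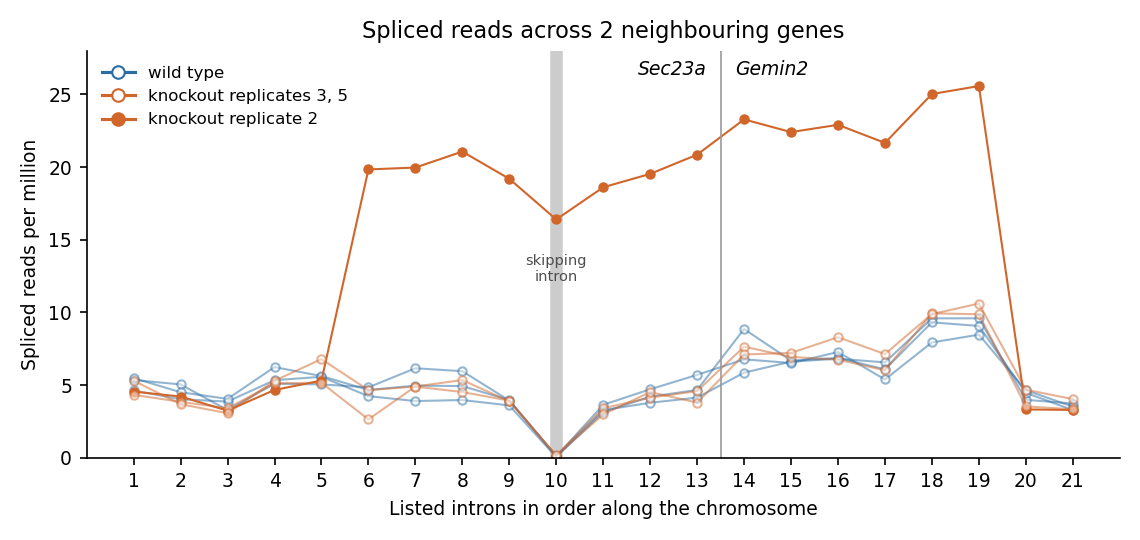
CPM of spliced reads at 21 consecutive listed introns of Sec23a and the neighbouring Gemin2, with 1 line a library. Knockout replicate 2 lies far above the other 5 libraries from the 6th to the 19th intron, and among or below them outside this stretch. The skipping intron of the Sec23a exon is marked in grey.

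Genes that regulate splicing themselves held 42 tested triplets in 28 of 85 listed genes. None passed the test, and 13 had higher and 29 lower inclusion. The groups did not overlap in 2 of each direction (9.52%, beside 11.9% over all). The median log2 odds was -0.10, beside -0.08 over all tested triplets. Frame-keeping exons made up 23 of the 42 (54.8%), against 67.9% overall. At an edgeR unadjusted p under 0.05 this list held 2 of its 42 triplets, both in Hnrnpd, beside 171 of 2603 (6.57%) over all.

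Hnrnpd makes its AUF1 protein isoforms through a pair of cassette exons, and both stood apart between the groups, in opposite directions. The 57-base exon printed above was kept in 37.4%, 41.8% and 37.1% of reads in wild-type cells and 43.5%, 44.8% and 45.6% in knockout cells (log2 odds 0.35, SE 0.14, edgeR adjusted p = 0.685). The 147-base exon (chr5:99963731-99963877) was kept in 66.3%, 60.3% and 71.4% in wild-type cells and 58.8%, 57.9% and 59.7% in knockout cells (log2 odds -0.45, SE 0.18, edgeR adjusted p = 0.685). In neither exon did the groups overlap, with 20809.5 and 25888 reads over the 6 libraries, and neither passed the test with the block (edgeR adjusted p = 0.362 and 0.325). Without wild-type replicate 5 the log2 odds of the 147-base exon was -0.27. The first was named after its values were seen.

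Several deeply read exons of other hnRNP genes had nearly equal shares in both groups. The 72-base exon of Hnrnpk was at 80.2%, 80.8% and 80.2% in wild-type cells and 80.5%, 80.8% and 80.5% in knockout cells over 33496 reads. The 36-base exon of Hnrnpa2b1, which separates the B1 from the A2 protein, was at 5.91%, 6.28% and 5.40% against 5.49%, 6.52% and 5.50%. Its 120-base exon was at 82.5% ± 4.87 and 81.4% ± 4.11 (SD, n = 3 each). The 159-base exon of Hnrnpa1 was at 11.4% ± 1.08 in wild-type cells and 10.6% ± 0.748 in knockout cells over 63799 reads. A 50-base exon of Hnrnph1 was at 43.5% ± 0.924 and 42.6% ± 1.30. Groups overlapped in all 5 exons, and the log2 odds ran from -0.12 to 0.02.

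The factors that recognise the 3′ splice site of U2-type introns also held cassette exons. U2af2, which encodes the large U2AF subunit that binds the polypyrimidine tract, had a 64-base exon at 2.29%, 2.69% and 2.70% in wild-type cells and 2.17%, 2.76% and 2.56% in knockout cells. U2af1l4 encodes a U2AF26 protein related to the small U2AF subunit. Its 96-base exon was at 71.8%, 57.8% and 81.4% in wild-type cells and 65.3%, 53.4% and 62.4% in knockout cells, lower in knockout cells at each replicate number but with overlapping groups (log2 odds -0.66, SE 0.39, edgeR adjusted p = 0.764). Its 99-base exon was at 96.4% ± 1.11 and 95.0% ± 1.16, and its 202-base exon at 96.5% ± 0.982 and 94.9% ± 1.54 (SD, n = 3 each).

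Among SR proteins and their partners the exons spanned the whole range. Srsf2 kept a 104-base exon in 0.594%, 0.387% and 0.485% of reads in wild-type cells and 0.364%, 0.164% and 0.380% in knockout cells, without overlap (log2 odds -0.54, SE 0.29, edgeR adjusted p = 0.759). The 165-base exon of Srsf6 was at 1.09% ± 0.693 and 0.731% ± 0.229. The 36-base exon of Srsf7 was at 39.6%, 38.0% and 39.3% in wild-type cells and 39.3%, 39.6% and 42.1% in knockout cells. A 42-base exon of Srrm1 stood at 33.6% ± 1.91 and 31.5% ± 2.13, a 30-base exon of Luc7l2 at 14.2% ± 0.734 and 13.7% ± 0.461, and the 161-base exon of Clk4, a kinase of SR proteins, at 81.6% ± 7.65 and 80.2% ± 0.885. In these last 5 exons the groups overlapped. The inclusion introns of the Srsf6 and Clk4 exons differed more than 3 times in reads.

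RNA-binding proteins of other families held exons with overlapping groups. Rbfox2, which encodes a regulator that binds beside alternative exons, had 3 of them. Its 43-base exon was at 22.7%, 22.8% and 21.3% in wild-type cells and 26.6%, 22.6% and 19.8% in knockout cells, and its 40-base exon at 41.1%, 39.7% and 39.9% against 40.9%, 42.9% and 36.1%. In both, the knockout libraries lay on either side of the wild-type ones. The 93-base exon of Rbfox2 was at 98.0%, 97.5% and 98.0% against 96.0%, 98.5% and 95.6%. For Tial1, which binds U-rich RNA, a 60-base exon was at 3.29%, 6.02% and 3.59% against 3.39%, 7.75% and 6.89%. A 271-base exon of Srrm2, a large splicing coactivator, was at 81.2%, 65.5% and 84.4% against 73.1%, 69.8% and 75.7%, where wild-type replicate 3 was the lowest of all 6. Acin1, an apoptosis-linked splicing factor, was the exception without overlap, with a 65-base exon at 25.6%, 23.9% and 18.9% against 26.2%, 26.7% and 26.0% (log2 odds 0.29, SE 0.20, edgeR adjusted p = 0.815).

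**Figure D4:**
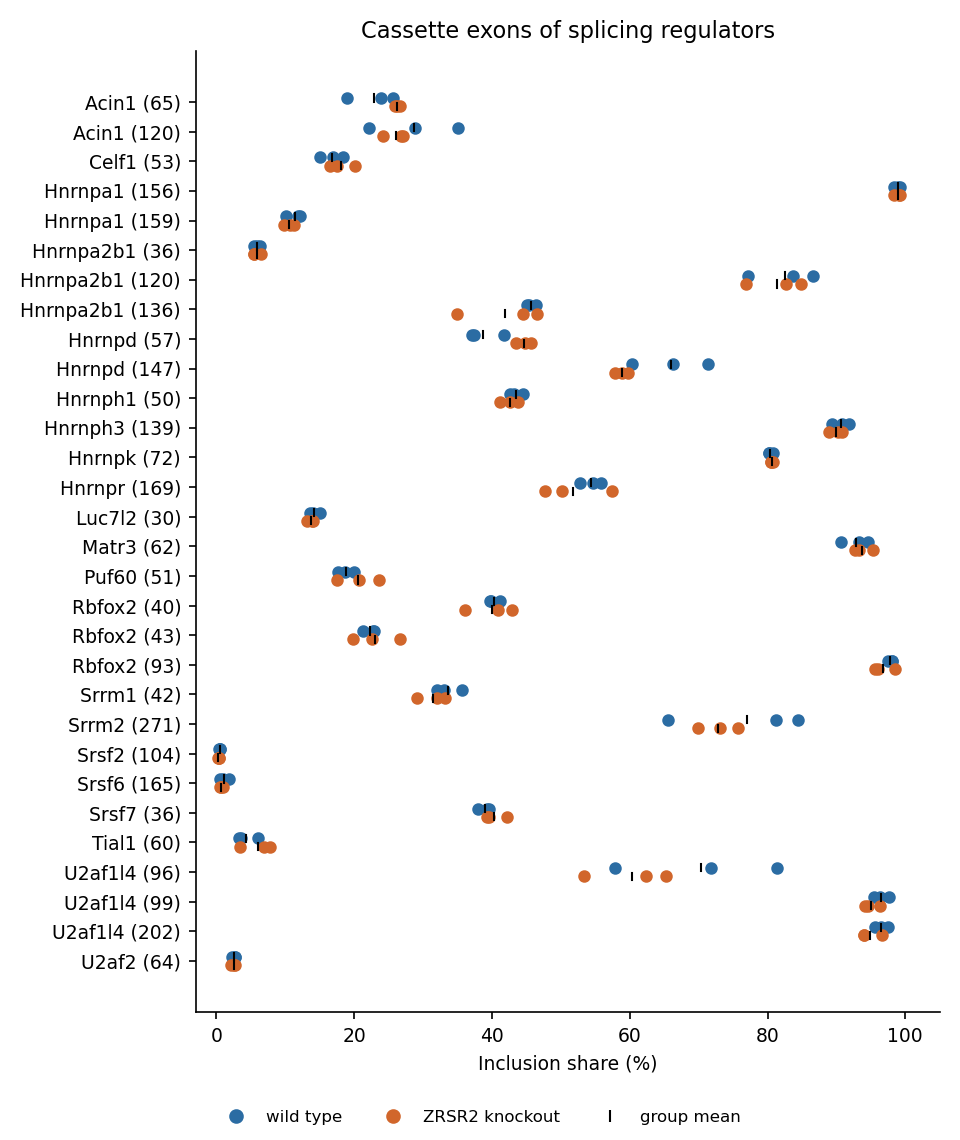
Inclusion share (percent) of 30 cassette exons of splicing regulators with at least 1000 reads in all, each row a gene with its exon length in bases, 1 point a library and a bar at the mean of each group (n = 3). The pair of Hnrnpd exons lies apart in opposite directions, while Hnrnpk and U2af2 lie on top of each other.

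Genes of the cytoskeleton, adhesion and trafficking held the most triplets of the lists, 116 in 57 of 98 genes. None passed the test, 52 were higher and 64 lower (median log2 odds -0.04), and groups did not overlap in 19 (7 higher, 12 lower, 16.4%, beside 11.9% over all). In 107 of the 116 (92.2%) the exon length was a multiple of 3. The 63-base exon of Enah, an Ena/VASP protein at actin filament ends, was at 9.11%, 15.9% and 11.2% in wild-type cells and 14.8%, 21.9% and 12.5% in knockout cells. It was higher in knockout cells at each replicate number, with overlapping groups (log2 odds 0.47, SE 0.28, edgeR adjusted p = 0.766). The log2 odds was 0.20 without knockout replicate 3, 0.30 without wild-type replicate 2 and 0.73 without wild-type replicate 3. The 168-base exon of Aplp2, which encodes the Kunitz inhibitor domain of this relative of the amyloid precursor protein, was at 55.6%, 49.3% and 53.3% in wild-type cells and 48.4%, 47.7% and 47.1% in knockout cells, without overlap (log2 odds -0.28, SE 0.16, edgeR adjusted p = 0.742).

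App itself has the corresponding 168-base exon (chr16:85043576-85043743), and its values lay the other way. It was at 77.8%, 69.4% and 57.1% in wild-type cells and 82.5%, 86.5% and 76.2% in knockout cells (log2 odds 1.36, SE 0.39, edgeR adjusted p = 0.685), over 678.5 reads in all. Knockout replicate 5 lay below wild-type replicate 2, so the groups overlapped. Map4, which encodes a microtubule-binding protein, kept a 114-base exon in 74.7%, 64.7% and 66.5% of reads in wild-type cells and 55.9%, 58.1% and 61.1% in knockout cells, without overlap (log2 odds -0.62, SE 0.24, edgeR adjusted p = 0.685). Its 93-base exon was at a mean of 58.6% in wild-type cells and 50.3% in knockout cells, also without overlap. The skipping intron of the 93-base exon contains that of the 114-base exon. Its 690 skipping reads were therefore also among the 723 of the 114-base exon, so the pair is not independent. The inclusion introns of the 93-base exon differed more than 3 times in reads. The 60-base exon of Sptan1, a spectrin, stood at 29.6%, 37.0% and 20.7% in wild-type cells and 31.6%, 35.4% and 34.6% in knockout cells. App and Map4 were named after their values were seen.

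Fibronectin (Fn1) has a pair of optional exons, EDB and EDA, that are kept in embryonic and wound tissue. EDB (273 bases, chr1:71613763-71614035) was kept in 77.7%, 81.2% and 89.5% of reads in wild-type cells and 66.1%, 69.8% and 89.3% in knockout cells (log2 odds -0.67, SE 0.50, edgeR adjusted p = 0.841). The log2 odds of EDB was -0.29 when wild-type replicate 5 was left out. Leaving out knockout replicate 2, 3 or 5 gave -0.26, -0.42 and -1.26. EDA (270 bases) was kept in 83.7%, 91.4% and 94.7% in wild-type cells and 84.7%, 82.5% and 92.0% in knockout cells. In both exons replicate 5 was the highest of each group. Levels of the fibroblast marker Col1a1 were 118, 66.0 and 35.2 CPM among wild-type libraries and 130, 85.6 and 17.1 CPM among knockout libraries, lowest in replicate 5 of each group. The part of such cells in the Fn1 values was not tested. In RNA from whole cultures, a different mix of cells and a different choice within each cell cannot be told apart.

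Chromatin and transcription genes held 67 tested triplets in 37 of 92 genes. None passed the test, and 26 were higher and 41 lower (median log2 odds -0.09). Groups did not overlap in 7 (3 higher, 4 lower, 10.4%, beside 11.9% over all). The 60-base exon of the DNA methyltransferase gene Dnmt3b was at 66.2%, 61.7% and 64.8% in wild-type cells and 71.1%, 68.7% and 62.3% in knockout cells. The optional 60-base exon of Kdm1a, a histone demethylase, was at 39.0%, 37.8% and 38.8% against 34.5%, 40.7% and 38.4%. Ezh2, the methyltransferase of Polycomb repression, kept a 126-base exon in 59.5% ± 5.22 of reads in wild-type cells and 62.1% ± 5.45 in knockout cells (SD, n = 3 each), and Zfp207, a zinc finger protein, a 48-base exon in 54.8% ± 2.25 and 53.1% ± 0.315. The groups overlapped in all 4 exons. Max, the partner of MYC, has a 27-base exon that gives its longer form. This exon was at 7.36%, 10.5% and 7.28% in wild-type cells and 13.4%, 13.3% and 11.2% in knockout cells, without overlap (log2 odds 0.63, SE 0.24, edgeR adjusted p = 0.685), and was named after its values were seen.

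In a further pair of chromatin exons 1 library stood apart from its group. In Suz12, a Polycomb subunit, a 69-base exon was at 80.8%, 76.6% and 78.1% in wild-type cells and 52.7%, 81.3% and 76.5% in knockout cells, where only replicate 2 was low. In Ehmt2, which encodes the methyltransferase G9a, a 102-base exon was at 53.3%, 42.9% and 55.6% in wild-type cells and 44.1%, 44.1% and 49.2% in knockout cells, and wild-type replicate 3 lay below every knockout library. Neither passed the test (edgeR adjusted p = 0.841 and 0.856).

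Signalling and cell death genes held 42 tested triplets in 25 of 62 genes. None passed the test, and 19 were higher and 23 lower (median log2 odds -0.02). Groups did not overlap in 6 (4 higher, 2 lower, 14.3%, beside 11.9% over all). Map4k4, a kinase of the JNK pathway, held 3 neighbouring cassette exons. The 192-base exon was at 55.5%, 52.7% and 50.4% in wild-type cells and 48.2%, 50.3% and 46.5% in knockout cells (log2 odds -0.25, SE 0.19, edgeR adjusted p = 0.841). The 231-base exon of Map4k4, counted with either of 2 skipping introns, lay the other way, at 78.0%, 81.5% and 75.6% against 84.7%, 86.1% and 83.8% in the deeper triplet (log2 odds 0.62, SE 0.22, edgeR adjusted p = 0.685). In both of these exons the groups did not overlap. The 2 skipping introns of the 231-base exon were nested, so the 473 skipping reads of its deeper triplet included the 434 of the other. Those 434 reads also skip the 162-base exon. The 162-base exon of Map4k4 was also counted with either of 2 skipping introns, and these gave opposite directions. In the deeper triplet (2582 reads) the exon was at 26.0%, 18.6% and 30.5% in wild-type cells and 20.1%, 11.9% and 22.1% in knockout cells, with overlapping groups (log2 odds -0.58, SE 0.33, edgeR adjusted p = 0.739). In the triplet with the longer skipping intron (1460.5 reads), whose inclusion introns differed more than 3 times in reads, it was at a mean of 66.4% in wild-type cells and 74.3% in knockout cells, without overlap (log2 odds 0.54, SE 0.23, edgeR adjusted p = 0.687). No direction is given for this exon. The 231-base and 162-base exons were named after their values were seen.

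Of the other signalling exons, the 81-base exon of Map3k7, which encodes the kinase TAK1, was at 72.9%, 74.8% and 74.4% in wild-type cells and 75.6%, 75.7% and 77.8% in knockout cells, without overlap (log2 odds 0.17, SE 0.21, edgeR adjusted p = 0.894). The 87-base exon of Ppp6r3, a regulatory subunit of protein phosphatase 6, was at 82.1% ± 1.52 and 85.4% ± 2.29. The 79-base exon of Mapk14, which encodes the stress kinase p38 alpha, was at 86.8% ± 2.46 and 87.9% ± 2.09 (SD, n = 3 each). Groups overlapped in the last pair.

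Genes listed for a U12-type intron, the kind ZRSR2 acts on, made up the last list. Of 89 such genes 11 held a tested triplet, 12 in all, and none passed the test. Inclusion was higher in 5 and lower in 7 (median log2 odds -0.09). Groups did not overlap in 1 of each direction (16.7%, beside 11.9% over all). The list was recalled from general knowledge, and whether the introns beside these exons are of the U12 type was not tested. Tcp1, a chaperonin subunit, kept an 86-base exon in 88.1%, 86.7% and 88.9% of reads in wild-type cells and 84.5%, 89.6% and 86.0% in knockout cells. Polr3e, a subunit of RNA polymerase III, kept a 78-base exon in 87.1%, 85.1% and 87.1% against 89.5%, 86.8% and 90.5%. The groups overlapped in both.

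Prmt1 of this list, the main arginine methyltransferase of the cell, had a 54-base exon (chr7:44984080-44984133) that was kept in 5.82%, 6.99% and 6.46% of reads in wild-type cells and 8.15%, 9.16% and 9.23% in knockout cells. The groups did not overlap over 29319 reads, and the log2 odds was 0.49 (SE 0.14, edgeR adjusted p = 0.685, with the block 0.224). Slc9a8, a sodium-proton exchanger of the Golgi, lay the other way, with an 81-base exon at 85.7%, 90.1% and 87.4% in wild-type cells and 85.4%, 83.6% and 74.1% in knockout cells (log2 odds -0.82, SE 0.41, edgeR adjusted p = 0.730). Both were named after their values were seen.

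The 8 exons with the largest lower share in knockout cells among those without overlap included Sec23a and Cdk2, described above. Csad encodes the decarboxylase that leads to taurine, and its 90-base exon was at 61.3%, 48.2% and 77.0% in wild-type cells and 34.4%, 43.9% and 44.7% in knockout cells (log2 odds -1.36, SE 0.44). Without wild-type replicate 5 the log2 odds of Csad was -0.75. For Gys1, the muscle glycogen synthase, a 192-base exon was at 67.1%, 54.4% and 58.9% against 39.2%, 38.1% and 51.5% (log2 odds -0.96, SE 0.29). Syk, a tyrosine kinase of immune receptors, has a 69-base exon in the linker between its domains, and this was at 47.1%, 25.0% and 33.3% in wild-type cells and 17.9%, 17.5% and 19.0% in knockout cells (log2 odds -1.08, SE 0.35). The knockout values of Syk lay close together, while the wild-type values were spread widely.

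Smaller sets of reads stood behind the rest of these 8. A 186-base exon of Vill, a villin-like actin-binding protein, was at 74.0% ± 9.79 in wild-type cells and 59.2% ± 1.90 in knockout cells. In Cracr2b, a regulator of calcium channels, a 167-base exon was at 57.7% ± 7.79 and 43.4% ± 8.72, and in Pde9a, a phosphodiesterase of cyclic GMP, an 85-base exon was at 95.3%, 92.8% and 87.5% against 81.0%, 73.1% and 84.8%. The ± values are SD, n = 3 each. The edgeR adjusted p of the 8 exons lay between 0.685 and 0.730 without the block, and 6 of the 8 had a length that is a multiple of 3.

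The 8 exons on the other side held between 263.5 and 3916 reads, and their edgeR adjusted p lay between 0.685 and 0.841. Pitpnm2, a phosphatidylinositol transfer protein, had a 162-base exon at 58.0% ± 14.2 in wild-type cells (SD, n = 3, from 49.5% in replicate 5 to 74.4% in replicate 3) and 74.7%, 84.1% and 82.7% in knockout cells (log2 odds 1.45, SE 0.51). Wild-type replicate 3 of Pitpnm2 lay just below knockout replicate 2. A 104-base exon of Atp11a, a lipid flippase, was at 61.9%, 47.8% and 59.3% against 77.1%, 69.0% and 73.5% (log2 odds 1.20, SE 0.38). Mpzl1, a membrane protein that binds the phosphatase SHP2, kept a 106-base exon in 31.4%, 39.1% and 30.6% of reads in wild-type cells and 46.4%, 48.0% and 40.8% in knockout cells (log2 odds 0.69, SE 0.24). Myef2, an RNA-binding protein related to hnRNP M, kept a 51-base exon in 24.6%, 30.9% and 20.4% against 32.0%, 38.9% and 34.8% (log2 odds 0.69, SE 0.24).

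The last 4 differed by 9.20 to 13.8 points between the group means. A 59-base exon of Rab6b, a Golgi GTPase, was at 76.2% ± 15.3 in wild-type cells and 89.9% ± 4.67 in knockout cells, with wild-type replicate 2 lowest at 58.5%. The 87-base exon of the kinase gene Tesk2 was at 69.0% ± 4.54 and 78.6% ± 4.14, the 75-base exon of Eps8, an actin capping protein, at 60.0% ± 5.29 and 69.6% ± 4.35, and the 88-base exon of Pik3c2a, a lipid kinase of endocytosis, at 32.1% ± 4.50 and 41.3% ± 6.14 (SD, n = 3 each). Of the 8 exons 4 had a length that is a multiple of 3.

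**Figure D5:**
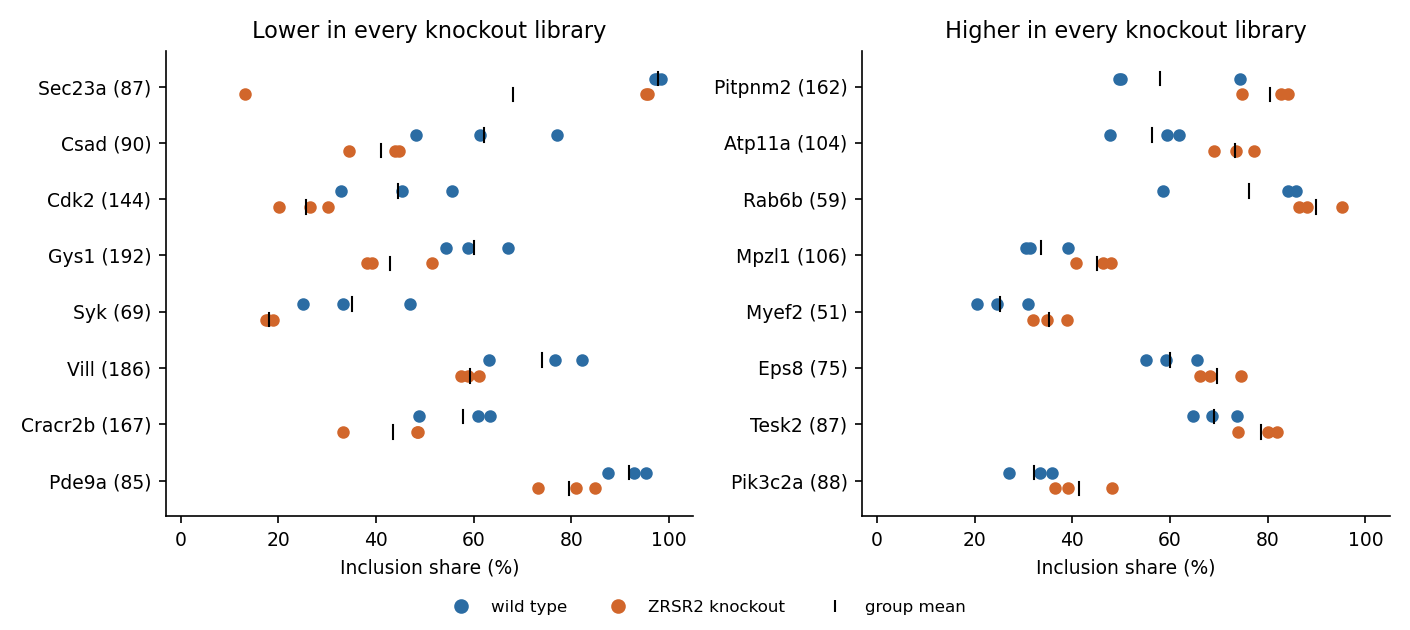
Inclusion share (percent) of the 8 exons with the largest lower (left) and the 8 with the largest higher (right) mean share in knockout cells among exons without overlap of the groups, 1 point a library, bars at group means (n = 3), exon length in bases in brackets. The Sec23a mean is set by knockout replicate 2 at 13.2%, while the other 2 knockout libraries are at 95.6% and 95.3%.

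The 10 triplets with the smallest unadjusted p had the same adjusted p of 0.685, with 7 lower and 3 higher, and they were chosen after their values were seen. Eif2ak4 encodes GCN2, the kinase that senses amino acid shortage. Its 103-base exon (chr2:118405047-118405149), which shifts the frame, was kept in 96.3%, 94.6% and 97.2% of reads in wild-type cells and 80.2%, 88.1% and 87.1% in knockout cells (log2 odds -2.14, SE 0.48, edgeR unadjusted p = 0.00105). The share of skipping was higher in all 3 knockout libraries, on only 40 skipping reads in all. These were 1, 5 and 4 in wild-type cells and 16, 6 and 8 in knockout cells. Wbp2, a WW-domain binding transcription coactivator, kept a 135-base exon in 90.9%, 85.2% and 90.5% against 81.5%, 77.1% and 80.7% (log2 odds -1.01, SE 0.26), and came closest to a call with the block outside the 3 above (edgeR adjusted p = 0.0816). Lsm5, a subunit of the LSm ring on U6 RNA, kept a 96-base exon in 94.7%, 92.6% and 95.5% against 91.3%, 89.3% and 91.1% (log2 odds -0.78, SE 0.22).

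In others of this set 1 form was rare as well. A 94-base exon of Trappc6b, a subunit of the TRAPP trafficking complex, was at 98.2%, 98.4% and 98.3% in wild-type cells and 96.0%, 94.7% and 96.4% in knockout cells (log2 odds -1.34, SE 0.35), with 46 skipping reads in all. The 136-base exon of Churc1 was at 93.3% ± 1.89 and 87.7% ± 1.09 (SD, n = 3 each). The 108-base exon of Zfp936, a zinc finger gene, was kept in 1.96%, 0.789% and 1.90% of reads in wild-type cells and 0.195%, 0.411% and 0.229% in knockout cells (log2 odds -2.18, SE 0.54), with 31.5 inclusion reads in all.

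H2-Ab1, a class II histocompatibility gene, was the remaining lower one, with a 273-base exon at 84.1% ± 2.82 in wild-type cells and 46.1% ± 3.62 in knockout cells (SD, n = 3 each), on only 75.5 inclusion and 21 skipping reads in all (log2 odds -2.68, SE 0.65). The 3 with higher inclusion were AW554918, with 16 skipping reads in all (log2 odds 3.63, SE 0.97), Mms22l and Mapkap1. Mms22l, a factor of replication fork repair, had a 120-base exon at 98.4%, 93.0% and 97.1% in wild-type cells and 100%, 99.0% and 99.3% in knockout cells (log2 odds 3.04, SE 0.84), with 22 skipping reads in all. Mapkap1, which encodes the SIN1 subunit of the mTORC2 kinase complex, kept a 108-base exon in 87.3%, 93.5% and 91.3% of reads in wild-type cells and 97.3%, 95.0% and 97.4% in knockout cells (log2 odds 1.43, SE 0.40). Next in order of p stood Sntb2, a syntrophin of the dystrophin complex, which kept a 185-base exon in 90.7%, 92.1% and 95.6% against 98.8%, 98.0% and 97.2% (log2 odds 1.81, SE 0.51). The groups did not overlap in any of these exons, and those of Mapkap1 and Sntb2 had 72 and 39 skipping reads in all.

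Unspliced reads of the inclusion introns were a further readout. The choice of triplets did not use the boundary reads, but it used the spliced reads that stand in the denominator. The unspliced share is the percent of signal at the exon-intron boundaries among boundary and spliced reads together. Wild-type libraries had 2.02%, 2.08% and 1.99% over 5070 inclusion introns, and knockout libraries 1.80%, 2.28% and 2.04%. Over 201571 other autosomal introns the shares were 1.67%, 1.68% and 1.58% against 1.52%, 1.84% and 1.68%. The inclusion introns lay above the other introns in every library. The log2 ratio of the 2 shares was 0.27, 0.31 and 0.33 in wild-type cells and 0.24, 0.31 and 0.28 in knockout cells (difference -0.03, exact permutation p = 0.5). Taken as a median over introns, the difference was -0.08 (exact permutation p = 0.1, the smallest that 3 against 3 allows). Introns before the exon were at 2.04% ± 0.0642 and 2.05% ± 0.242, and introns after it at 2.05% ± 0.0360 and 2.06% ± 0.238 (wild type and knockout, SD, n = 3 each), with overlapping groups.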

How the data were processed

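The authors deposited, for each of 6 libraries, 1 table of the same 219945 introns with 3 raw read counts (A1, A2 and Exon), a fraction (CovFrac) and a percent (MSI), per the file headers, which do not define them. For the aligner and the counter, nothing is given in the sources used here. The build is mm10, per the submitters' processing notes. Within 0.01, the deposited percent in 1319670 values was (A1 + A2) / 2 over the sum of (A1 + A2) / 2 and Exon, times 100, so Exon was read as the count of spliced reads and A1 and A2 as boundary reads. The deposited fraction was not used.

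The deposited Exon count of an inner intron was never below that of an intron around it, so skipping reads (S) were subtracted from both inclusion introns, and I is the mean of the 2 remainders. The test had been planned with these reads left in, which keeps the share above 50%, and that form was run as an added alternative. Junctions outside the table were not counted, and strand was ignored in the counts. Coordinates are 1-based. Genes came from RefSeq (GRCm38.p6) by position, and a gene without a listed intron is not analysed here.

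I (rounded) and S were tested with edgeR 4.0.16 (R 4.3.3; quasi-likelihood F test, interaction of read kind with genotype, a term per sample, TMM factors, Benjamini-Hochberg over 2697 triplets). A positive log2 odds means more inclusion in the knockout. Its SE was derived from the F statistic. On simulated data 3 unchanged triplets were called. DESeq2 1.42.0, limma 3.58.1 (0.5 added to I and S), other read minimums, other forms of I and leaving out each library were alternatives. Library values were compared by two-sided exact permutation.

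Replicate numbers (2, 3 and 5, after an unexplained letter P) were checked for pairing. Deviations of equal-numbered libraries from their group means correlated at 0.112, 0.189 and 0.145 over 2017 triplets, and those of unequal numbers at -0.112 to -0.023. Deviations cancel out within a group, so the negative values follow from the positive ones and are no separate evidence. The numbers were taken to pair the libraries, from these same data and not the labels.

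The members, gene lists and tests were chosen with earlier results of these data known. The naming rule takes every call, the 8 largest differences of mean inclusion in each direction without overlap (at least 20 reads in every library, inclusion introns within 3 times of each other, 1 exon a gene), and the 4 deepest exons of each list with pooled inclusion of 10% to 90%. Counts per library limit precision as given by the SD and SE.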

Additional observations from a re-analysis of the deposited data

How the results depend on the processing

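Beyond the replicate block, none of the alternatives gave a call, and unadjusted p under 0.05 numbered from 56 (DESeq2) to 335 (without wild-type replicate 3) of 2603 triplets, beside 171. Without wild-type replicate 5 there were 95. With the replicate block 3 triplets were called lower and 0 higher. Leaving out 1 library under the block, an alternative added after seeing the data that leaves 1 residual degree of freedom, moved the number called lower between 0 and 63 (61 without wild-type replicate 3) and the number called higher between 0 and 13. The pairing changed no other call. The difference of median inclusion was -0.868 points with at least 20 reads in every library, and -3.55 to -2.17 points with 1 library left out. The log2 ratio of unspliced shares differed by -0.0809 as a median over introns. Of the exons named by rule, Hnrnpk turned to -0.00597 with the smaller inclusion intron, Hnrnpa2b1 (120 bases) to 0.0967 without wild-type replicate 2 and 0.102 with knockout replicate 3 left out, Mapk14 to -0.0447 and -0.0640 without the same libraries, and Kdm1a to 0.0604 without knockout replicate 2. Over all 6 omissions their ranges were -0.37 to 0.10, -0.06 to 0.21 and -0.13 to 0.06. With the skipping reads left in (added after seeing the data), 98 triplets were at an unadjusted p under 0.05 and none was called. The cause of these shifts was not tested. Depth limits exons with few reads of 1 form, and changes of 1 in log2 odds were mostly missed on simulated data.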

Other observations

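Some short exons, chosen after their values were seen, did not pass the test. Rps24, a protein of the small ribosomal subunit with alternative short exons near its end, kept a 20-base exon (chr14:24495430-24495449) in 14.4% ± 3.13 of reads in wild-type cells and 11.5% ± 0.530 in knockout cells (SD, n = 3 each) over 58188.5 reads. The groups did not overlap, and wild-type replicate 5 was the highest at 18.1% (log2 odds -0.35, SE 0.17, edgeR adjusted p = 0.730). Ptprs, a receptor tyrosine phosphatase, kept a 12-base exon in 12.5% ± 0.548 against 10.8% ± 0.559 (SD, n = 3 each), also without overlap (log2 odds -0.23, SE 0.18, edgeR adjusted p = 0.853). Immt, a scaffold of mitochondrial cristae, kept a 15-base exon in 19.7%, 19.4% and 20.4% against 20.2%, 17.9% and 20.4%, with overlapping groups. A 15-base exon of the spectrin gene Sptan1 was at 0.402%, 0.794% and 0.615% against 0.893%, 0.855% and 0.471%, likewise with overlap.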
